A study of Mus musculus with 12 samples.

Results

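Many mouse zinc finger genes are named Zfp and a number, and 238 of the 359 such protein-coding genes in the table were expressed in adult lung. Lung RNA came from 12 male wild-type C57Bl/6J mice of the NCGG colony, 3 mice each at 3, 6, 12 and 24 months of age, untreated apart from ageing, and 1 poly(A) RNA library was made per mouse. Genes were chosen by their measured level: a Zfp gene was included when its mean over the 9 libraries of 3, 6 and 12 months reached 5 CPM, where CPM is counts per 1000000 of all gene reads of a library. The table held 35275 genes, of which 16042 had enough reads to be tested, and all 238 Zfp genes were among them. The 238 gene IDs carry 237 symbols, because Zfp319 stands for 2 IDs. The 24-month libraries played no part in the choice, so a gene that was low until 12 months and higher at 24 months could not enter. Whole lung holds many cell types, so fewer cells of a type and less RNA per cell cannot be told apart.

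Zinc finger proteins hold small folded loops, each pinned by a zinc ion between paired cysteines and histidines, and many read DNA with several such fingers in a row. The largest class in mammals also carries a KRAB domain, which binds the corepressor Trim28. Trim28 brings in the histone methyltransferase Setdb1 and HP1 proteins, and the KRAB genes are best known for silencing retroelements and guarding imprinted loci. Other Zfp proteins bind RNA, such as the Zfp36 family, which hastens the decay of mRNAs with AU-rich elements, or act in translation, differentiation and immune cells. Most of the KRAB genes lie in clusters that grew by duplication.

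A short linker with the residues threonine, glycine, glutamate, any residue and proline joins neighbouring fingers in the classical type. Annotated transcripts were searched on both strands for the DNA form of this linker, ACNGGNGANNNNCC, and for 2 copies at a distance of 84 bases, which is 1 finger of 28 residues. Such a tandem pair occurred on the sense strand in 131 of 237 Zfp genes (55.3%), against 374 of 21756 protein-coding genes (1.72%), and on the antisense strand in 1 and 4 of them. The search was added after the data had been seen. A coding stretch of 98 bases from linker to linker is shown for 4 genes, 2 that were lower and 2 that were higher at 24 months, because base composition differs between them as it does over the whole group. Bases are from GENCODE M21 on GRCm38, and capitals mark both linkers. Zfp141 is on the minus strand of chr7:42475737-42475834, in exon 7 of 7, and Zfp317 on the plus strand of chr9:19647128-19647225, in exon 6 of 6. Zfp574 is on the plus strand of chr7:25081115-25081212, in exon 2 of 2, and Zfp771 on the plus strand of chr7:127253919-127254016, in exon 3 of 3.
Zfp141: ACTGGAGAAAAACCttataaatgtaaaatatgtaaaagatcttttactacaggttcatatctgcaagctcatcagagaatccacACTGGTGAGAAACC
Zfp317: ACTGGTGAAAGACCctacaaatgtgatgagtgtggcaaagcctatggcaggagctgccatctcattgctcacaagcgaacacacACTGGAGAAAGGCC
Zfp574: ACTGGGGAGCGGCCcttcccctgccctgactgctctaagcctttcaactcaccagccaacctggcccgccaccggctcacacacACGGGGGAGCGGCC
Zfp771: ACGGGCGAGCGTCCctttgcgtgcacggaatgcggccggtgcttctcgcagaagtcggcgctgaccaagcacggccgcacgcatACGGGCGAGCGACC

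The GC content of these stretches was 34.7% in Zfp141, 51% in Zfp317, 68.4% in Zfp574 and 69.4% in Zfp771. A stretch could be placed in the coding sequence of 126 of the 131 genes with tandem linkers. The median GC content of the stretch was 44.9% in 105 genes that fell between 3 and 24 months, 63.3% in 15 that rose and 64.3% in 6 that passed the test in neither direction.

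Libraries held 14.7 to 21.2 M gene reads. Weighted by reads, gene GC content averaged 54.3 to 55.9% at 24 months, above the 50.5 to 51.8% of the remaining 9 libraries. The mitochondrial share was lowest in the oldest mice, at 0.443 to 0.629%, compared with 1.65 to 2.14% in the 6 youngest and 3.12% in mouse 3 of the 12-month group. Over all tested genes, a smooth function of GC content and gene length accounted for 70.8% of the variance of the log2 fold changes between 24 and 3 months. Age and the base composition of the 24-month libraries cannot be told apart in this design. Each fold change below is therefore given from the edgeR fit on reads and again corrected. For the corrected values, a separate smooth of log2 CPM on GC content and length was fitted in each library and removed. Summed over 5 markers, lung epithelium was present in every mouse, at 44559 to 81533 scaled CPM. The 4 plasma cell markers summed to 158 to 200 scaled CPM at 3 months and 2384 to 4100 at 24 months, the 4 B cell markers to 59.5 to 120 and 207 to 571, and the 3 T cell markers to 11.9 to 16 and 39.3 to 79.6. Single markers differed: among T cell markers Cd3e rose from a mean of 4.66 to 47.6 scaled CPM, while Cd3d (4.09 and 5.81) and Cd3g (4.73 and 4.37) did not pass, and among B cell markers Ms4a1 (16.7 and 9.06) did not pass. After the correction Cd3g and Ms4a1 rose, by log2 fold changes of 1.44 and 1.75. The 3 thymus markers were near 0 from the start, with a sum of 0.368 to 0.537 scaled CPM at 3 months. All 3 were at 0 at 24 months, and they had too few reads to be tested. Whether these cells took part in the Zfp values was not tested.

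Most expressed Zfp genes were lower at 24 months than at 3 months, and a smaller set was higher. By edgeR's quasi-likelihood test with Benjamini-Hochberg adjustment over all genes, 162 of 238 (68.1%) fell and 59 (24.8%) rose at an adjusted p under 0.05, while of all tested genes 44.6% fell and 38.2% rose. The median log2 fold change was -2.17 over the Zfp genes and -0.29 over all tested genes. Among 11734 protein-coding genes held to the same limit of 5 CPM, 46.5% fell and 40.9% rose, with a median of -0.26. Without any limit on level, 331 Zfp genes were tested, of which 245 fell and 66 rose. The 3 mice of 24 months all lay below the 3 mice of 3 months in 166 Zfp genes (45.8% of all tested genes did so) and all above in 63 (38.6% of all tested genes). Scaled to library totals without the TMM factors of edgeR, 169 fell and 41 rose, while 8542 fell and 4230 rose of 16042 tested genes. With that scaling the median of all tested genes moved from -0.29 to -1.0.

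The direction followed base composition. Of 99 Zfp genes with under 45% GC, 98 fell and 0 rose. Of 44 with over 55% GC, 0 fell and 39 rose. Among all tested genes in these GC ranges, 94% fell in the first and 90.2% rose in the second, so the Zfp genes at both ends moved as other genes of their composition did. Between 45 and 55% GC the Zfp genes departed further, with 64 of 94 (68.1%) falling against 44.4% of all tested genes, and 19 rising (20.2% against 30.2%). The Pearson correlation between GC content and log2 fold change was 0.83 across 237 Zfp genes and 0.79 across 15949 tested genes, points that all come from the same 6 libraries. Zfp genes were of lower GC content than tested genes as a whole, with medians of 46.9 and 50.3%.

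**Figure D1:**
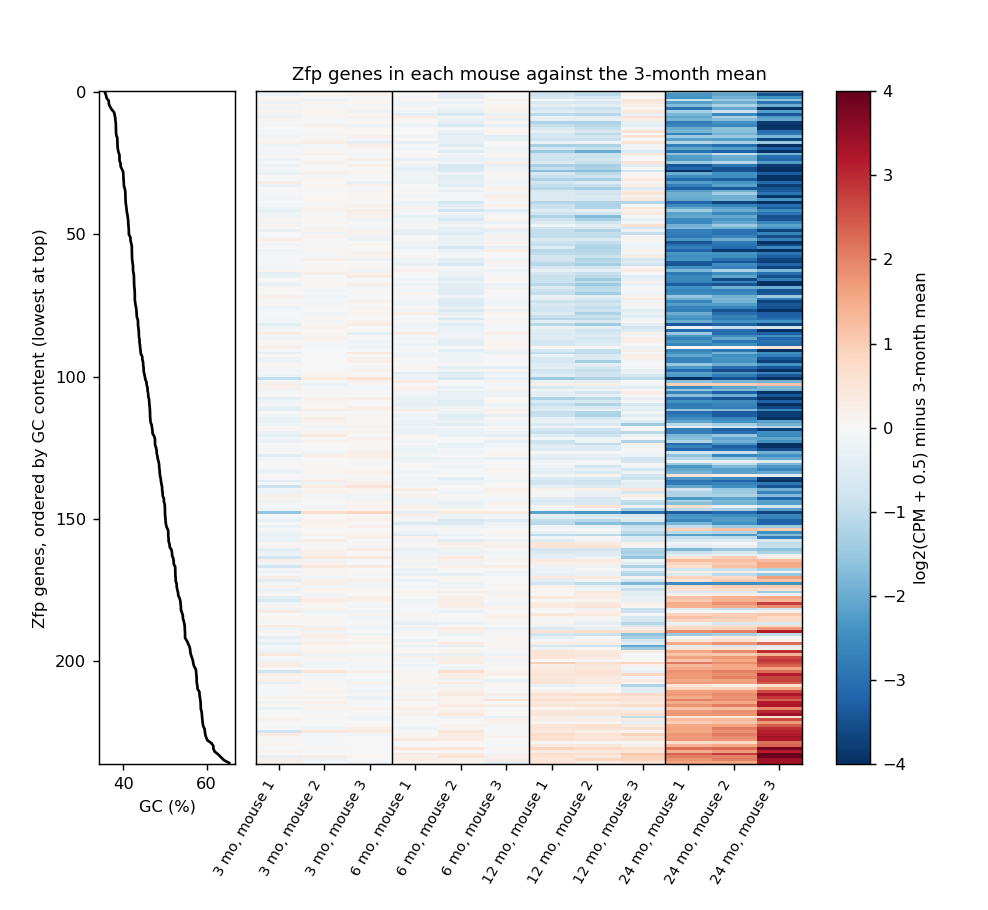
Each row is 1 of 237 Zfp genes, ordered by the GC content of its transcripts (line at left, %), and each column 1 mouse; colour is log2(scaled CPM + 0.5) minus the 3-month mean. The 24-month columns are blue in rows of low GC content and red in rows of high GC content, and 12-month mouse 3 is paler than the other 12-month mice.

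After correction the skew over the whole group was smaller, and it kept its side. Of 237 genes, 100 (42.2%) fell and 37 (15.6%) rose, against 26.6% and 29.9% of all tested genes, and the median log2 fold change was -0.29 over Zfp genes and 0.01 over all tested genes. Of the 162 genes that fell before correction, 82 also fell after it, 72 passed in neither direction and 8 rose. Of the 59 that rose, 25 also rose after correction, 8 fell and 26 passed in neither direction, among them the Zfp319 ID that has no GC value. Between 45 and 55% GC, 54 of 94 (57.4%) still fell, against 30.5% of all tested genes of that range. Below 45% GC 35 of 99 (35.4%) fell, against 25.3%, and above 55% GC 11 of 44 (25%) fell, against 18.8%. Rises were 8 (8.08%) below 45% GC, against 19.1%, and 13 (29.5%) above 55% GC, against 31.7%. Above 55% GC the median log2 fold change was 0.15 over Zfp genes and 0.14 over all tested genes. The median thus showed no downward skew in that range.

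**Figure D2:**
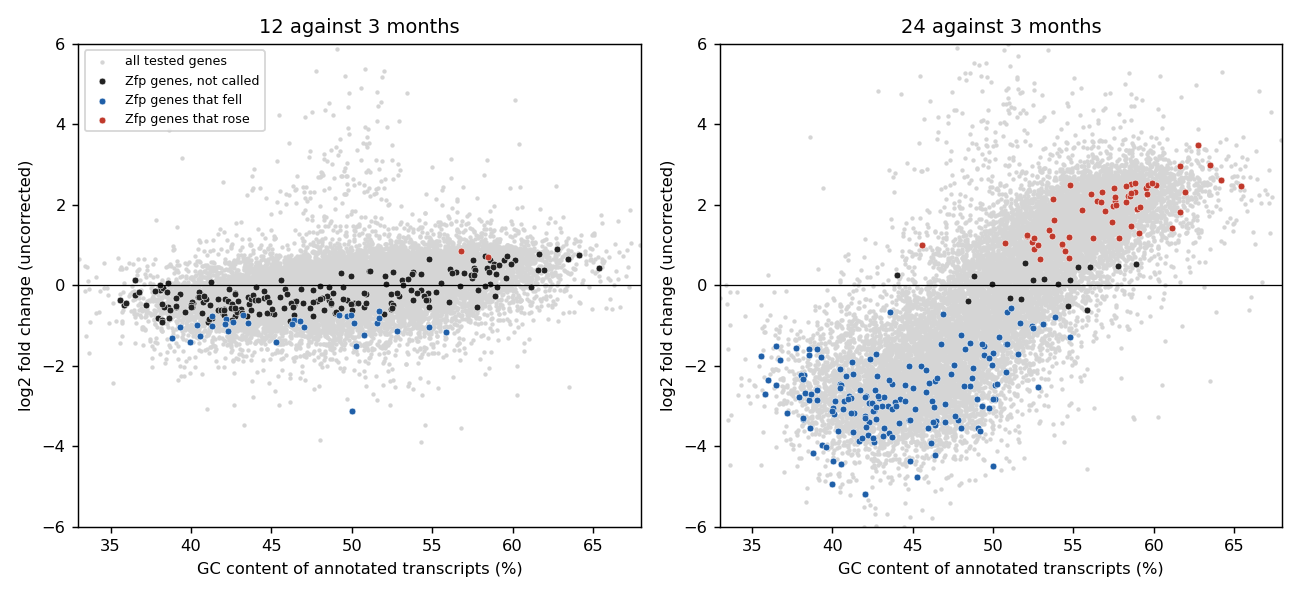
Log2 fold change (uncorrected) against the GC content of annotated transcripts (%), at left for 12 against 3 months and at right for 24 against 3 months; grey points are all tested genes and coloured points Zfp genes. At 24 months the Zfp genes lie along the band of all genes, with a Pearson correlation of 0.83, and at 12 months the slope is shallower, with 0.54.

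In what follows, rises and falls of single genes are given as signed log2 fold changes, with their SE after the ± sign. The 10 largest falls at 24 months were in Zfp141, Zfp329, Zfp445, Zfp366, Zfp933, Zfp317, Zfp65, Zfp74, Zfp280c and Zfp322a, with log2 fold changes from -5.19 to -4.01. All 10 also fell after correction, from -4.17 in Zfp366 to -1.16 in Zfp322a. In each of them the 24-month mice lay below every younger mouse, and 9 of the 10 had a GC content of 46.4% or less, the exception being Zfp366.

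Zfp141, at chr7:42473386-42505726 on chromosome 7 (mm10, as are all gene positions here), gave 7.65, 9.36 and 8.94 scaled CPM in the 3-month mice, 3.76, 3.65 and 9.86 at 12 months and 0.494, 0.145 and 0 at 24 months. Scaled CPM are CPM after TMM scaling, which sets libraries on a common level. The 12-month mouse with the highest value was mouse 3, and no 24-month mouse came near the younger ones. The log2 fold change was -5.19 ± 0.58 (SE), with an adjusted p of 1.01e-06, and -2.49 ± 0.46 after correction (adjusted p = 3.79e-04). It rests on 8 reads in all 3 old mice together, the fewest of any of the 238 genes, and 14.4% of its 50-base words also occur in another gene.

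Zfp317, at chr9:19641224-19648048, gave 11.6, 13.1 and 14.3 scaled CPM at 3 months, 13.2, 11.4 and 14 at 6 months, 7.61, 6.46 and 10.3 at 12 months and 1.07, 0.654 and 0 at 24 months. Its old mice held 22 reads together against 850 in the 3-month mice, and the groups did not overlap. The log2 fold change was -4.37 ± 0.44 and, corrected, -2.71 ± 0.35 (adjusted p = 1.59e-05). Zfp329, at chr7:12804977-12818858, had 12.4, 14.9 and 15.1 scaled CPM at 3 months and 0.411, 0.799 and 0 at 24 months, a log2 fold change of -4.95 ± 0.47 (-2.09 ± 0.33 corrected).

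Zfp366, also known as DC-SCRIPT, is a nuclear receptor cofactor of dendritic cells. At chr13:99184823-99247037, with 50% GC, it had 3.10, 16.8 and 18.9 scaled CPM at 3 months, 8.08, 13.1 and 13.2 at 6 months, 1.90, 1.60 and 0.875 at 12 months and 0.576, 0.727 and 0.351 at 24 months. The 3-month mouse 1 was low among the young mice, but it still exceeded all mice of 12 and 24 months. Its fall at 24 months changed little with correction, from -4.48 ± 0.62 to -4.17 ± 0.67 (adjusted p = 1.67e-04). Zfp933 and Zfp74, on chromosomes 4 and 7, had tight 3-month levels of 11.4 ± 0.493 and 9.68 ± 0.0243 scaled CPM (SD, n = 3) and 24-month levels of 0.498 ± 0.299 and 0.494 ± 0.253. Corrected, they fell by log2 fold changes of -1.65 ± 0.36 and -2.20 ± 0.33.

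The 10 largest rises were in Zfp385a, Zfp628, Zfp703, Zfp771, Zfp574, Zfp651, Zfp358, Zfp787, Zfp524 and Zfp316, with log2 fold changes from 3.49 to 2.49. Their GC content was 54.8 to 64.1%. After correction 6 of the 10 still rose, by 0.44 to 1.15, and Zfp628, Zfp574, Zfp651 and Zfp316 did not pass the test, with 0.40, 0.21, 0.30 and 0.10. That split turned on single mice: the corrected call of Zfp771 was lost without 3-month mouse 2 (0.38) or 24-month mouse 3 (0.33). Zfp628 gained a call without 3-month mouse 2 (0.55), 24-month mouse 1 (0.49) or 24-month mouse 2 (0.56), and Zfp651 without 3-month mouse 1 or 24-month mouse 2 (0.43 in each case). In all 10, 24-month mouse 3 was the highest of the 12 mice. Without that mouse, 161 of the 238 Zfp genes fell and 61 rose (98 and 31 of 237 corrected). Over all tested genes, 6970 of 16338 then fell and 6144 rose (4072 and 4563 of 16240 corrected).

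Zfp385a encodes a zinc finger protein that binds RNA and acts with p53. At chr15:103313895-103340086, it gave 11.2, 10.6 and 10.8 scaled CPM at 3 months, 13.7, 14.3 and 9.83 at 6 months, 18.2, 18.7 and 24.2 at 12 months and 57.4, 78.2 and 231 at 24 months. Levels of the 12-month mice lay above all younger mice, and those of 24 months above all others, with mouse 3 far above its group. The log2 fold change was 3.49 ± 0.41 and, corrected, 1.00 ± 0.16 (adjusted p = 1.31e-04).

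Zfp703 is a Groucho-binding corepressor of epithelial cells. It gave 63.2, 69.9 and 64.8 scaled CPM at 3 months, 121, 115 and 103 at 12 months and 309.7, 326 and 913 at 24 months, at chr8:26977336-26981461. The groups did not overlap, and the log2 fold change of 2.97 ± 0.35 became 0.53 ± 0.11 with correction (adjusted p = 0.00111). Zfp787, at chr7:6131489-6155971, kept the largest corrected rise of the 10. It gave 20.7, 17.3 and 19.2 scaled CPM at 3 months and 69.6, 78.2 and 175 at 24 months, a log2 fold change of 2.5 ± 0.29 (1.15 ± 0.19 corrected, adjusted p = 1.71e-04). Zfp771 and Zfp574, whose finger stretches are printed above, rose by log2 fold changes of 2.63 ± 0.34 and 2.55 ± 0.34, and by 0.44 ± 0.14 and 0.21 ± 0.12 after correction, of which the second did not pass (adjusted p = 0.147). For Zfp524, 45% of 50-base words also occur in another gene, so its reads are uncertain.

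Correction turned 16 calls around, 8 in each direction. One of those that fell uncorrected and rose corrected was Zfp410, the activator of the chromatin remodeller gene Chd4. It gave 27.4, 24.7 and 29 scaled CPM at 3 months and 21.1, 16.5 and 11.9 at 24 months, a log2 fold change of -0.71 ± 0.20, which became 0.85 ± 0.12 when corrected (adjusted p = 2.91e-05). Zfp407, chosen after its values were seen, moved further, from -0.67 ± 0.22 to 2.23 ± 0.27. From a rise to a fall, Zfp598 and Zfp467 went from 1.30 ± 0.22 and 1.17 ± 0.22 to -0.78 ± 0.16 and -0.77 ± 0.13. A corrected value compares a gene with others of like GC content and length, so the direction of these genes depends on that choice.

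**Figure D3:**
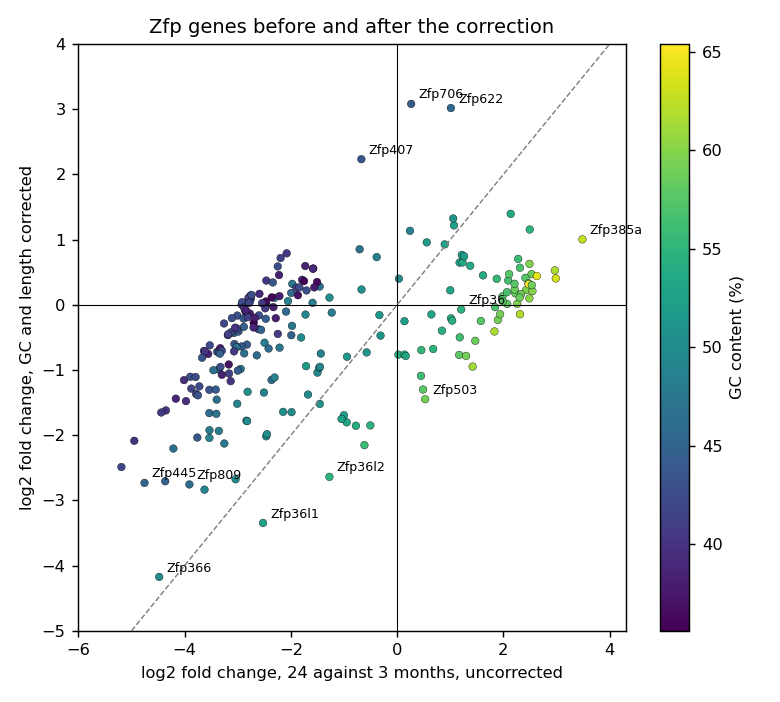
Log2 fold change at 24 against 3 months for 237 Zfp genes, uncorrected (x axis) and corrected for GC content and length (y axis), coloured by GC content (%); the dashed line marks equal values. Low-GC genes lie above the line and high-GC genes below it, Zfp366 stays near it at -4.48 and -4.17, and Zfp706 and Zfp622 stand at the top, at 3.08 and 3.02.

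Of 16 listed Zfp proteins of RNA metabolism, translation and related processes, 14 were expressed. At 24 months 8 fell and 5 rose, with a median log2 fold change of -1.36, and after correction 6 fell and 3 rose, with a median of -0.14. The shares were 57.1% and 35.7%, against 44.6% and 38.2% of all tested genes, and corrected 42.9% and 21.4%, against 26.6% and 29.9%. The Zfp36 family of mRNA decay factors split. Zfp36 (tristetraprolin), the Zfp gene with the highest level per length, had a mean FPKM (reads per kilobase of gene, scaled to library size) of 137 ± 30.2 at 3 months. Its paralogs Zfp36l2 and Zfp36l1 stood at 43.7 ± 7.24 and 20.2 ± 3.57 FPKM.

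Zfp36l1, at chr12:80107760-80113013, gave 48, 60.2 and 45.8 scaled CPM at 3 months, 50.9, 44 and 49.9 at 6 months, 30.3, 25.2 and 14.4 at 12 months and 8.55, 8.86 and 9.36 at 24 months. The 3 and 6 month mice overlapped, and the mice of 12 and of 24 months each formed a lower group. The log2 fold change at 24 months was -2.52 ± 0.25, and the correction made it larger, -3.35 ± 0.17 (adjusted p = 2.42e-08). Its GC content was 52.8%.

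Zfp36l2, at chr17:84183931-84187947, gave 132, 149.9 and 112 scaled CPM at 3 months, 130.4, 113 and 127 at 6 months, 78.9, 73.7 and 41.5 at 12 months and 46.4, 52.3 and 64.5 at 24 months. All mice of 12 and 24 months lay below all younger mice, and these older groups overlapped each other. Its log2 fold change at 24 months was -1.28 ± 0.24, and -2.64 ± 0.16 corrected (adjusted p = 4.51e-08). Zfp36, at chr7:28376784-28379255, gave 182, 256 and 189 scaled CPM at 3 months, 139, 164 and 246 at 12 months and 371, 396 and 679 at 24 months. It rose by 1.21 ± 0.28 (adjusted p = 0.00102), while the corrected value of -0.07 ± 0.26 did not pass.

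Zfp622, which acts in maturation of the large ribosomal subunit, and Zfp706 had a GC content below the Zfp median and higher mean levels at 24 months. Zfp622, at chr15:25984366-25998482 with 45.6% GC, gave 43.3, 30.4 and 35.5 scaled CPM at 3 months and 69.8, 71 and 79.5 at 24 months, a log2 fold change of 1.01 ± 0.19 (3.02 ± 0.24 corrected). Zfp706, with 44% GC, gave 126, 103 and 99 and 115, 119 and 160.4 scaled CPM, with overlap between the groups. Its uncorrected value of 0.26 ± 0.19 did not pass, turned to -0.039 without 3-month mouse 3 and to -0.51 with library totals, and its corrected value was 3.08 ± 0.33 (adjusted p = 4.32e-06).

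Zfp207, a spindle and splicing factor, had the second highest FPKM, and fell from 116, 116 and 125 scaled CPM to 23.4, 20 and 21.4, a log2 fold change of -2.46 ± 0.19. Corrected, the value was 0.01 ± 0.16, which did not pass. The ubiquitin ligase Zfp91 fell in both fits, by -3.02 ± 0.25 and -0.65 ± 0.12, as did the splicing-linked Zfp326, by -3.62 ± 0.25 and -0.72 ± 0.19. Zfp598, the ubiquitin ligase that marks collided ribosomes, gave 65.7, 72.1 and 70.9 scaled CPM at 3 months and 139, 149 and 226 at 24 months. Of the 5 genes with the highest FPKM, Zfp740 rose in both fits, by 1.05 ± 0.21 and 1.32 ± 0.13, and Zfp664 fell in both, by -2.31 ± 0.22 and -1.11 ± 0.11.

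**Figure D4:**
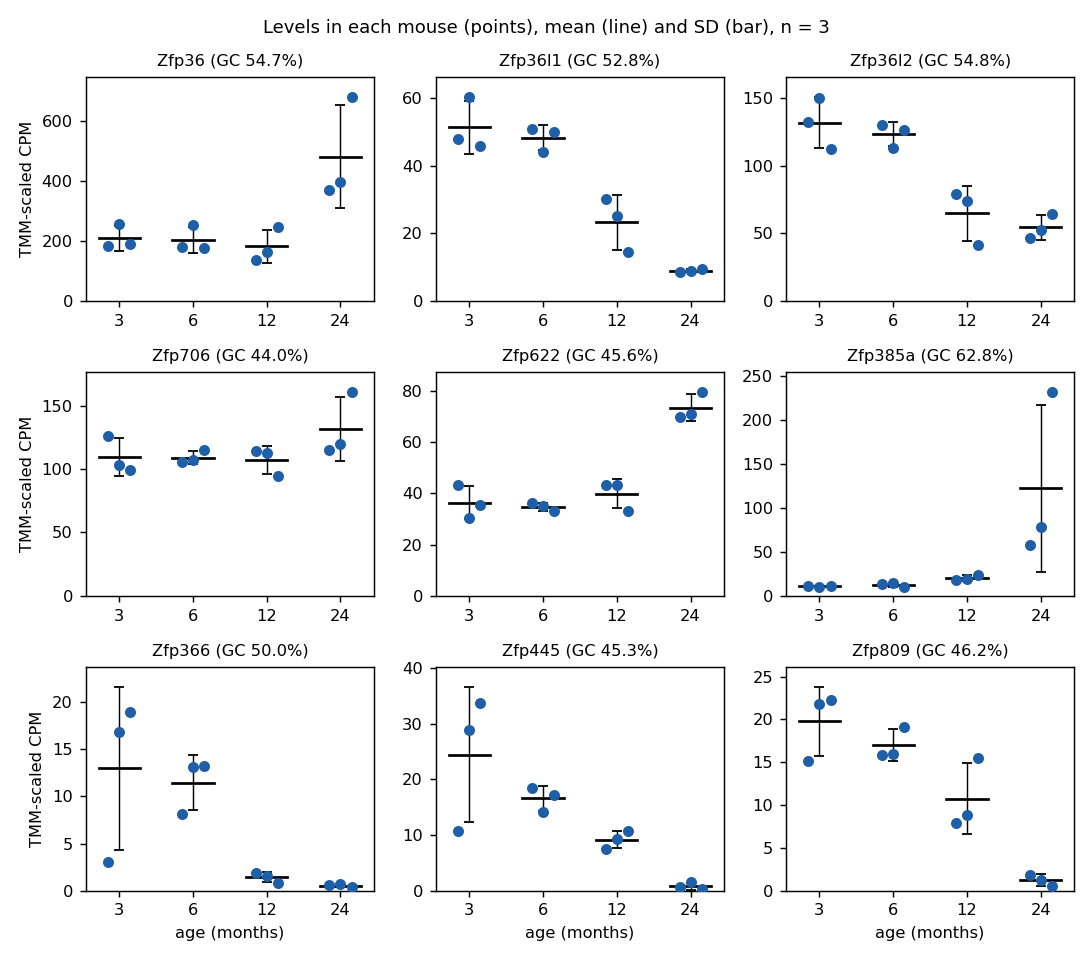
Scaled CPM of 9 Zfp genes by age (months), each point 1 mouse, lines the mean and bars the SD of 3 mice. On this uncorrected scale Zfp36l1 and Zfp36l2 step down at 12 months, Zfp36 (-0.07 corrected) and Zfp385a are highest at 24 months, and Zfp366, Zfp445 and Zfp809 are near 0 at 24 months.

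Zfp genes listed for imprint or retroelement silencing were lower in old lung. Of 10 listed, 7 were expressed, and at 24 months all 7 fell, with a median log2 fold change of -3.30. Of all tested genes 44.6% fell, and 94% of those under 45% GC, while the median GC content of the list was 45.3%. Corrected, 6 of these 7 genes still fell and the median was -1.30, against -0.29 over all Zfp genes and 26.6% of all tested genes falling, while Zfp518a did not pass (0.05 ± 0.15, from -2.47 ± 0.32). The list was drawn up with earlier results of these data known.

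Zfp57 and Zfp445 bind methylated imprinting control regions and preserve their marks in the embryo. Zfp57, at chr17:37001163-37010635, gave 22.6, 24.7 and 25.8 scaled CPM at 3 months, 21.1, 19.8 and 27.3 at 6 months, 16.9, 15.7 and 11.3 at 12 months and 7.16, 6.32 and 4.80 at 24 months. Both the 12-month and the 24-month mice lay below every 3-month mouse. The log2 fold change was -1.99 ± 0.23 at 24 months and -1.65 ± 0.16 corrected (adjusted p = 1.34e-06).

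Zfp445, at chr9:122851914-122862128, gave 10.7, 28.9 and 33.7 scaled CPM at 3 months, 18.4, 14.2 and 17.2 at 6 months, 7.57, 9.22 and 10.7 at 12 months and 0.740, 1.53 and 0.234 at 24 months. The 3-month mice were spread widely, and mouse 1 almost met the highest 12-month mouse, while the 24-month mice stood apart. Its log2 fold change was -4.76 ± 0.48, and -2.73 ± 0.47 corrected (adjusted p = 2.25e-04).

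Zfp809, which recognises murine leukaemia proviruses in embryonic stem cells, gave 15.2, 21.8 and 22.3 scaled CPM at 3 months, 15.9, 16 and 19.1 at 6 months, 7.91, 8.89 and 15.5 at 12 months and 1.89, 1.31 and 0.585 at 24 months, at chr9:22225714-22243197. Only the 24-month mice were clear of all younger ones. It fell by -3.91 ± 0.36, and by -2.76 ± 0.30 corrected (adjusted p = 4.05e-06). Zfp568, which represses a placental Igf2 transcript, fell by -1.81 ± 0.24 (-0.50 ± 0.15 corrected), and Zfp961 by -3.41 ± 0.38 (-1.30 ± 0.25 corrected). Zfp932 fell by -3.30 ± 0.40 (-1.07 ± 0.23 corrected), but 37% of its 50-base words are shared with its paralog Gm15446, so reads of the pair may not be separate.

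Of 29 listed Zfp genes of differentiation and transcription control, 26 were expressed, 14 fell and 9 rose at 24 months, with a median log2 fold change of -0.69. After correction 11 fell and 5 rose, with a median of -0.15. The shares were 53.8% and 34.6%, against 44.6% and 38.2% of all tested genes, and corrected they were 42.3% and 19.2%, against 26.6% and 29.9%. Zfp318, which controls the choice between IgM and IgD in B cells, gave 25.6, 30.7 and 30.3 scaled CPM at 3 months and 3.62, 2.47 and 1.64 at 24 months. It fell by -3.46 ± 0.29 and by -1.0 ± 0.17 corrected, in the mice whose summed B cell markers were highest, and the part of those cells was not tested.

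The transcription factor Zfp143, which binds many promoters, gave 16, 17 and 16.7 scaled CPM at 3 months and 2.22, 1.31 and 0.585 at 24 months. It fell by -3.54 ± 0.36, and by -1.66 ± 0.27 corrected. Zfp521, a progenitor cell factor, and the chromatin protein Zfp462 fell by -2.82 ± 0.25 and -2.81 ± 0.30, and by -1.78 ± 0.22 and -1.33 ± 0.24 corrected. Zfp608 gave 40, 67.4 and 60.4 scaled CPM at 3 months and 6.66, 5.59 and 1.87 at 24 months, and fell by -3.53 ± 0.35 (-2.04 ± 0.25 corrected). Its paralog Zfp609 gave 37.4, 86.1 and 83.3 and 93.7, 130.1 and 80.2 scaled CPM, which overlapped. Zfp609 did not pass uncorrected, at 0.56 ± 0.35, and rose corrected, by 0.96 ± 0.23 (adjusted p = 0.00287).

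Zfp503 and Zfp703 form a pair of related corepressors. Zfp503 gave 67, 69.8 and 59.8 scaled CPM at 3 months and 87.9, 88.1 and 108 at 24 months. All old mice were higher, yet the log2 fold change of 0.53 ± 0.24 did not pass (adjusted p = 0.0548), it was -0.23 with library totals, and the corrected value was -1.45 ± 0.26 (adjusted p = 2.83e-04). Zfp281 and Zfp148, G-rich element binders, fell by -3.01 ± 0.29 and -2.76 ± 0.31, but the corrected values of -0.17 ± 0.13 and 0.14 ± 0.13 did not pass. Zfp219, Zfp523 and Zfp395 rose, by 2.31, 2.47 and 2.09, and corrected gave -0.14, 0.33 and 0.37, of which the last pair passed. The corrected call of Zfp523 was lost without 3-month mouse 1 (0.31), 3-month mouse 2 (0.31) or 24-month mouse 3 (0.18), and that of Zfp395 without 3-month mouse 2 (0.35) or 3 (0.32).

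Partners of KRAB zinc finger proteins changed in both directions. Of 24 measured genes of this repressor machinery, 17 fell and 6 rose at 24 months, with a median of -1.23, and after correction 9 fell and 7 rose, with a median of -0.14. These are 70.8% and 25% of the list, against 44.6% and 38.2% of all tested genes, and corrected 37.5% and 29.2%, against 26.6% and 29.9%. The 6 genes with the smallest p were Pphln1, Fam208a, Cbx1, Morc3, Hdac2 and Cbx3. Fam208a encodes TASOR, the core of the HUSH silencing complex, and gave 58.7, 70.1 and 72.4 scaled CPM at 3 months, 25.6, 20.5 and 28.5 at 12 months and 5.10, 3.56 and 3.74 at 24 months. It fell by -4.01 ± 0.24, and by -1.47 ± 0.24 corrected, with no overlap between these ages.

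Pphln1, encoding the HUSH subunit periphilin, fell by -3.21 ± 0.22 and -0.86 ± 0.14 in the 2 fits, and the HP1 genes Cbx1 and Cbx3 by -2.83 ± 0.22 and -2.69 ± 0.28, corrected -1.29 ± 0.13 and -0.58 ± 0.14. Not all HP1 and HUSH genes did so, as shown by Cbx5 and Mphosph8, named after their values were seen. The HP1 gene Cbx5 fell by -1.63 ± 0.19 uncorrected and rose by 1.30 ± 0.22 corrected. The HUSH gene Mphosph8 fell by -3.03 ± 0.49, and its corrected value of -0.61 ± 0.30 did not pass. The ATPase gene Morc3 and the deacetylase gene Hdac2 fell uncorrected, by -3.03 ± 0.25 and -2.61 ± 0.23, but corrected values of -0.27 ± 0.13 and -0.01 ± 0.21 did not pass. Trim28 itself and Setdb1 were named after their values were seen. Trim28 gave 104, 82.5 and 88.9 scaled CPM at 3 months and 337, 404 and 875 at 24 months. It rose in both fits, by 2.55 ± 0.30 and 0.99 ± 0.19 (adjusted p = 4.59e-04 corrected). Setdb1 fell by -1.29 ± 0.21, and its corrected value of 0.25 ± 0.11 did not pass.

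At 12 against 3 months far fewer genes passed, nearly all of them downward. Of 238 Zfp genes 31 (13%) fell and 2 (0.840%) rose, against 8.87% and 6.3% of all tested genes, and the median log2 fold change was -0.37 against -0.02. These genes were measured against the same 3-month mice as those of the comparison at 24 months. The 12-month mice all lay below the 3-month mice in 66 Zfp genes (20.4% of all tested genes did so) and all above in 27 (24% of all tested genes). After correction 25 fell and 3 rose, against 8.56% and 10.6% of all tested genes, with medians of -0.09 and 0.05, and 17 genes fell in both fits.

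The count at 12 months leaned on single mice. It was 5 falls without 3-month mouse 2, 9 without mouse 3, 12 without 12-month mouse 1 and 10 without mouse 2, but 73 without 12-month mouse 3. Falls over all tested genes moved the same way, from 1423 with all mice to 230, 353, 632, 506 and 2227 in these runs. The leaning was thus one of the whole comparison and not of the Zfp genes alone. Of the 12-month libraries, mouse 3 had a median Zfp log2 level of -0.11 against the 3-month mean, and the others -0.48 and -0.54. That mouse also had the highest mitochondrial share, 3.12%, against 1.95 and 1.96%, and the lowest read-weighted GC content, 50.7%, against 51.7 and 51.8%, and the part of these in the result was not tested. When the 24-month mice took no part in the fit, 63 fell and 20 rose, while 2727 fell and 3021 rose of 15908 tested genes. With mouse number as a block, 20 fell and 1 rose, while 985 fell and 602 rose of 16042 tested genes.

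The 5 largest falls with no overlap were in Zfp366, Zfp641, Zfp445, Zfp329 and Zfp280c, and all 5 also fell after correction. Zfp366 had the lowest log2 fold change at this age in both fits, -3.12 ± 0.52 and -3.08 ± 0.54. Zfp641, at chr15:98285588-98296130, gave 30.4, 35.5 and 31.3 scaled CPM at 3 months, 21.7, 22.4 and 27.9 at 6 months, 15, 9.83 and 9.10 at 12 months and 8.80, 5.67 and 3.04 at 24 months. Every 6-month mouse already lay below every 3-month mouse, and every 12-month mouse below every 6-month mouse. The log2 fold change at 12 months was -1.51 ± 0.29 (adjusted p = 0.00639) and -1.28 ± 0.21 corrected (adjusted p = 0.00198).

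Zfp445 and Zfp329 fell by -1.42 ± 0.37 and -1.40 ± 0.35 at 12 months. Each lost its call without 3-month mouse 2 (-1.29 and -1.37), 3-month mouse 3 (-1.13 and -1.36), 12-month mouse 1 (-1.30 and -1.24) or 12-month mouse 2 (-1.42 and -1.24). Zfp280c fell by -1.32 ± 0.40 (adjusted p = 0.0406), and lost its call without any of 3-month mice 1, 2 or 3 or 12-month mice 1 or 2, with values from -1.35 to -1.02. Corrected calls were also lost, for Zfp445 without 3-month mouse 2 or 3 or any single 12-month mouse (-1.24 to -0.86), for Zfp329 without 3-month mouse 2 (-0.77) or 3 (-0.78), and for Zfp280c without any of the 5 mice just named (-0.87 to -0.68). In both fits the calls of Zfp366 and Zfp641 did not change when any single mouse was left out.

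The decay factors Zfp36l1 and Zfp36l2 fell at 12 months by -1.14 ± 0.23 and -1.02 ± 0.24, and by -1.24 ± 0.15 and -1.17 ± 0.15 corrected, the smallest adjusted p of the group there (6.31e-04). Of the 7 imprint and retroelement genes, 3 fell uncorrected and 4 corrected, against 8.87% and 8.56% of all tested genes. Zfp57 fell by -0.73 ± 0.21 and -0.69 ± 0.14, with all 12-month mice below all 3-month mice. Zfp809 did not pass uncorrected (-0.88 ± 0.29, adjusted p = 0.0519) and fell corrected, by -0.99 ± 0.23. Of the 24 machinery genes, 7 fell (29.2%) and 0 rose in edgeR, against 8.87% and 6.3% of all tested genes, and 5 fell (20.8%) and 0 rose corrected, against 8.56% and 10.6%, among them Fam208a, by -1.43 ± 0.21 and -0.84 ± 0.20.

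The rises at 12 months were Zfp775 and Zfp341. Zfp775, at chr6:48613180-48623227, gave 8.27, 6.20 and 6.62 scaled CPM at 3 months, 6.87, 8.61 and 7.50 at 6 months, 14.2, 11.3 and 12.9 at 12 months and 31.7, 26.8 and 46.6 at 24 months. The 12-month mice lay above all younger mice, with a log2 fold change of 0.87 ± 0.23 (0.68 ± 0.18 corrected). The call was lost without 3-month mouse 2 (0.77), 3-month mouse 3 (0.81) or 12-month mouse 1 (0.77), and corrected without any of these or 12-month mouse 3 (0.55 to 0.64). Zfp341, an activator of the Stat3 gene, rose by 0.70 ± 0.22, did not pass corrected (0.33 ± 0.23), and lost its call without any of 3-month mice 1, 2 or 3 or 12-month mice 1 or 2, with values from 0.64 to 0.72.

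Between 3 and 6 months no Zfp gene passed the test in edgeR, DESeq2 or limma voom. Of all tested genes 0% rose and 0% fell in edgeR, and 6 rose in DESeq2. After correction 0 Zfp genes passed, against 0.00627% of all tested genes that rose and 0% that fell. At an unadjusted p under 0.05, 0 Zfp genes stood out in edgeR, against 267 (1.66%) of all tested genes, and 1 (Zfp810, lower) after correction. The smallest adjusted p of a Zfp gene was 1.00. The median log2 fold change was -0.09, against -0.01 over all tested genes. In 28 Zfp genes all 6-month mice were below all 3-month mice (5.28% of all tested genes were), and in 8 all were above (5.58%). Log2 fold changes of Zfp genes ranged from -0.56 to 0.40, with a Pearson correlation to GC content of 0.49 across 237 Zfp genes and 0.20 across 15949 tested genes, all from the same 6 libraries.

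The comparison of 24 with 12 months shares its old mice with that of 24 with 3 months. Of 238 Zfp genes 155 fell (65.1%) and 66 rose (27.7%), against 42.5% and 37.3% of all tested genes, with a median log2 fold change of -1.75 against -0.20. All 24-month mice were below all 12-month mice in 154 genes (42.8% of all tested genes were), and above in 67 (37.2%). Corrected, 69 fell (29.1%) and 25 rose (10.5%), against 21.2% and 21.6% of all tested genes. Zfp141, Zfp65, Zfp317, Zfp329 and Zfp74 fell most, from -4.60 ± 0.59 to -3.47 ± 0.39, and all fell corrected. Zfp385a, Zfp628, Zfp703, Zfp362 and Zfp335 rose most, from 2.58 ± 0.39 to 2.08 ± 0.38, and corrected Zfp385a, Zfp703 and Zfp362 rose, by 0.75, 0.33 and 0.43. The corrected call of Zfp703 was lost without 12-month mouse 2 or 3 or any single 24-month mouse (0.23 to 0.33), and that of Zfp362 without 24-month mouse 1 (0.39).

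Zfp36l2 gave -0.25 ± 0.24 at 24 against 12 months, which did not pass, while Zfp36l1 fell again, by -1.39 ± 0.25. Corrected, both fell, by -1.47 and -2.11. Zfp366 also did not pass in this comparison, at -1.36 ± 0.68 (-1.10 corrected), with 20 reads in the 3 old mice together.

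Genes with tandem linkers, the sequence class shown above, were of lower GC content, 43.9% by the median against 50.5% in the other Zfp genes. Of the 131, 109 (83.2%) fell and 16 (12.2%) rose at 24 months, with a median log2 fold change of -2.56. Of the 106 without, 53 (50%) fell and 42 (39.6%) rose, with a median of -0.64. The shares of all tested genes were 44.6% and 38.2%. Under 45% GC all 74 genes with tandem linkers fell, as did 24 of 25 without and 94% of all tested genes. After correction 59 of 131 fell and 12 rose (median -0.45), against 41 and 25 of 106 (median -0.05). Corrected, 26.6% of all tested genes fell and 29.9% rose. Within 45 to 55% GC the corrected counts were 29 falls and 4 rises of 44 with tandem linkers, and 25 falls and 12 rises of 50 without. In that range 30.5% of all tested genes fell and 33.2% rose. Under 45% GC, 27 of 74 with tandem linkers fell corrected and 6 rose, and 8 and 2 of 25 without. There 25.3% of all tested genes fell and 19.1% rose. Over 55% GC, 3 of 13 with tandem linkers fell corrected and 2 rose, and 8 and 11 of 31 without. The shares of all tested genes there were 18.8% and 31.7%. The difference between these classes was not tested.

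The Zfp genes were crowded on few chromosomes. Chromosome 7 held 55 (23.1%) and chromosome 17 held 35 (14.7%), against 7.59% and 4.92% of all protein-coding genes at the same level. On chromosome 7, 30 (54.5%) fell and 21 (38.2%) rose at 24 months, at a median GC content of 51.1%. On chromosome 17, 30 (85.7%) fell and 5 (14.3%) rose, at 40.7%, and the corrected medians were -0.50 and -0.20. Another Zfp gene lay within 100 kb of 122 genes, of which 89 (73%) fell and 28 (23%) rose. Of the 116 without one, 73 (62.9%) fell and 31 (26.7%) rose. The shares of all tested genes were 44.6% and 38.2%, and 94% of those under 45% GC fell. Duplicated genes can share reads. In 21 genes over 10% of 50-base words occur in another gene, and of these 17 (81%) fell and 3 rose. Among the other 216 with transcripts, 145 (67.1%) fell and 55 rose. These 216 make up most of the group, so their split cannot show whether shared reads mattered, which was not tested.

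At the limit of choice, Zfp3 and Zfp14 were just inside, at 5.07 and 5.11 CPM, and Zfp39 and Zfp825 just outside, at 4.99 and 4.92. Under the limit through 12 months but at or over 5 CPM at 24 months were 5 genes, Zfp423, Zfp689, Zfp428, Zfp41 and Zfp296, with 6.04 to 9.87 CPM. In turn 146 of the 238 were under 5 CPM at 24 months. As a share of all gene reads the 238 took 0.602 to 0.706% at 3 months and 0.462 to 0.529% at 24 months, while the 59 that rose went from 0.185 to 0.213% to 0.347 to 0.470%. Over the 238, the median ratio of SD to mean was 0.101 at 3 months and 0.377 at 24 months. That ratio was not taken over all tested genes or at 6 and 12 months. The part of low counts at 24 months, or of 24-month mouse 3, in it was not tested.

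The authors' deposited table gives fold changes and adjusted p-values for the same comparisons against 3 months. In the authors' deposited table, 163 of the 238 fell and 63 rose at 24 months (36.2% and 33.2% of genes with an adjusted p), 55 fell and 16 rose at 12 months (13.5% and 13.7%), and 0 changed at 6 months (0.0252% and 0.101%).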

How the data were processed

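Lung poly(A) RNA of 12 mice was measured. The deposited table holds, per the file headers, read counts per gene and FPKM in each library and the authors' log2 fold changes and p-values of 3 comparisons. The submitters' processing notes name TopHat, STAR 2.5, HTSeq 0.6.1 and build mm10, without roles. Strandedness and the treatment of reads shared by paralogs or overlapping genes are both not given in the sources used here, and 19 Zfp genes overlap another expressed gene.

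Counts were filtered with filterByExpr, scaled with TMM and tested with the quasi-likelihood test of edgeR 4.0.16 (robust, all 12 libraries, age as a factor), in R 4.3.3, with Benjamini-Hochberg adjustment. SE values come from the fold change divided by the root of F. The corrected fit added an offset per library, a smooth on GC content and log2 length (mgcv 1.9.3), with GC content from GENCODE M21 transcripts for 15949 genes. Alternatives were DESeq2 1.42.0, limma voom (limma 3.58.1), RLE factors, other filters, a mouse-number block, fewer mice and leaving out each mouse; library totals and leave-one-out with the correction were added after seeing the data. In simulated 24 against 3 month data, 76 of 97 genes changed by 1 on the log2 scale and 96 of 98 changed by 2 were recovered, with 10 false calls among 15752 genes tested. The simulation changed few genes, as many up as down, with the same spread for every gene and no shift with GC content. In the real comparison most genes were called and fold changes followed GC content, so these rates do not carry over to it.

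The Zfp genes, gene lists and tests were chosen with earlier results of these data known. Genes named were, with an adjusted p under 0.05 and no overlap, the 10 largest rises and falls at 24 against 3 months, the 5 largest each way elsewhere, the 5 with the highest FPKM, those beside the limit, listed genes by role and the 6 machinery genes of smallest p; others are marked. A protein table was not used here, so classes by protein domain were replaced by the linker search.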

Additional observations from a re-analysis of the deposited data

How the results depend on the processing

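With RLE factors, DESeq2, limma voom, other filters or only the 6 mice compared, counts at 24 months stayed within 1.5 times of the reported ones against both 3 and 12 months, and at 6 against 3 months 0 Zfp genes passed under every alternative run. Moved counts at 12 against 3 months were 47 falls with limma voom, 1 rise with library totals or without a filter, 13 rises with only those 6 mice, 63 falls and 20 rises without the 24-month mice, and 38 falls and 13 rises when these were left out and the correction was made, against 25 and 3 with the correction alone. Over all tested genes at 12 against 3 months, 1844 fell with limma voom, and 2727 fell and 3021 rose without the 24-month mice. Rises were 487 of 16042 with library totals, 802 of 24086 without a filter and 2020 of 15657 with only those 6 mice. Without the 24-month mice and with the correction, 1938 fell and 2783 rose of 15816. With an offset on GC content alone, 38 rose at 24 against 3 months, and 29 rose and 78 fell at 24 against 12 months. Of 15949 tested genes, 4815 rose in the first comparison, and 3572 rose and 3518 fell in the second. With the GC and length correction, 37 rose and 100 fell against 3 months, and 25 rose and 69 fell against 12 months. Of 1900 values of 82 pairs of a named gene and a comparison under alternatives, 1746 kept direction and side of the threshold, 87 lost the call, 22 gained one and 45 reversed, and the cause was not tested. A second change on top of the correction was set against the corrected value. A Zfp limit of 1 CPM gave 239 falls and 64 rises of 321, and 10 CPM gave 110 and 52 of 177.

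Same-numbered mice deviated from their age means with correlations of -0.051, 0.11 and -0.13 at 24 and 3 months, -0.062, 0.029 and -0.0041 at 12 and 3, 0.12, 0.070 and 0.19 at 6 and 3, and -0.096, -0.17 and -0.25 at 24 and 12. In none of the 4 comparisons were all 3 over 0.1, so the numbers were not taken to pair the mice. With mouse number as a replicate block, 20 fell and 1 rose at 12 against 3 months. The replicate block with the GC and length correction gave 38 rises and 97 falls at 24 against 3 months, 4 rises at 12 against 3 months, and 26 rises and 68 falls at 24 against 12 months. Over 15949 tested genes these were 4680 rises and 4163 falls, 1502 rises, and 3336 rises and 3252 falls.

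Without 1 mouse in turn, counts were 56 to 61 rises and 159 to 166 falls at 24 against 3 months, 0 to 3 rises and 5 to 73 falls at 12 against 3 months, and 62 to 67 rises and 154 to 159 falls at 24 against 12 months. With the correction they were 29 to 37 and 91 to 101, 0 to 4 and 8 to 21, and 20 to 27 and 61 to 73. Over the 16150 to 16338 genes tested in these runs, uncorrected rises at 24 against 3 months ran from 5363 to 6144 and falls from 6858 to 7466. At 12 against 3 months 72 to 1199 rose and 230 to 2227 fell, and at 24 against 12 months 5239 to 6017 and 6617 to 7099. Corrected, these were 4156 to 4676 and 3772 to 4147, 391 to 1373 and 507 to 1160, and 2874 to 3504 and 2964 to 3386. The lone pair left in an age is assumed to vary like the other ages.

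The following log2 fold changes at 24 against 3 months reversed. The GC and length correction gave Zfp36 -0.072, Zfp207 0.0084, Zfp598 -0.78, Zfp106 0.32, Zfp346 -0.21, Zfp330 0.22, Zfp503 -1.45, Zfp219 -0.14, Zfp148 0.14, Zfp384 -0.15, Zfp292 0.37, Zfp467 -0.77, Zfp652 0.11, Zfp746 -0.40, Zfp827 0.23, Zfp410 0.85 and Zfp518a 0.051. The GC offset alone gave Zfp36 -0.033, Zfp598 -0.65, Zfp346 -0.035, Zfp330 0.83, Zfp503 -1.35, Zfp384 -0.013, Zfp292 0.052, Zfp467 -0.66, Zfp746 -0.27 and Zfp410 0.91. Library totals gave Zfp706 -0.51, Zfp503 -0.23, Zfp384 -0.086 and Zfp609 -0.15. Without 1 mouse in turn, Zfp706 ran from -0.039, without 3-month mouse 3, to 0.35. Corrected values ran across 0 for Zfp207 from -0.25 to 0.16, Zfp330 from -0.059 to 0.44, Zfp335 from -0.24 to 0.18, Zfp36 from -0.23 to 0.15, Zfp362 from -0.045 to 0.071, Zfp518a from -0.070 to 0.041 and Zfp652 from -0.0063 to 0.18.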
